A study of Mus musculus with 2 samples.

Results

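Cell cycle genes are the genes that a dividing cell switches on in turn: 36 of the 32285 genes in the count matrices, chosen by symbol, and all 36 were found in both matrices. They were read as an S list of 15 genes of DNA replication (Pcna, Mcm2, Mcm3, Mcm4, Mcm5, Mcm6, Mcm7, Tyms, Rrm1, Rrm2, Gins2, Cdc6, Uhrf1, Ccne1 and Ccne2) and a G2/M list of 18 genes of mitosis and its preparation (Mki67, Top2a, Ccna2, Ccnb1, Ccnb2, Cdk1, Birc5, Aurka, Aurkb, Bub1, Bub1b, Cenpa, Cenpe, Cenpf, Nusap1, Tpx2, Ube2c and Cdc20). Ccnd1, Hmgb2 and Stmn1 were kept in neither list, because cells that do not divide also use them.

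Single-cell RNA sequencing was done on the brains of C57BL mice aged 8-13 weeks, in a condition that the labels call NMO at 24 h, after enzymatic digestion of the tissue. The labels do not spell the abbreviation out; in brain research it usually stands for neuromyelitis optica. CD45 is a surface protein of leukocytes, and there was 1 library of cells without it (CD45-negative) and 1 of cells with it (CD45-positive). No source used here gives the number of mice behind a library or the method of separation, and no untreated library was analysed here, so the values describe these cells at 24 h and not a response. With 1 library per group no difference has a replicate check, and every interval below is a 95% interval that covers counting error only. After filtering, 12847 of 14524 CD45-negative barcodes and 8432 of 8662 CD45-positive barcodes remained, with a median of 5407 and 6088 UMIs (tags that let each captured RNA molecule be counted once). The deposited libraries shared 27 barcodes, which were not removed for that.

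In the textbook cycle, cyclin D with its kinases releases E2F transcription factors in G1, E2F switches on the genes that license and copy DNA, and a later programme led by B-Myb and FoxM1 switches on the genes of the spindle and of chromosome segregation. In the adult rodent brain, dividing neural cells are best known from the subventricular zone, whose precursors give rise to migrating neuroblasts, while mature neurons and myelinating oligodendrocytes do not divide. Microglia and activated T cells can divide when stimulated.

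Promoters of a few members are shown here because the S and G2/M lists part in the cells described below. Of the 36 genes, 28 had an entry in the RefSeq promoter table (GRCm38.p6), and the 250 bases before the start of the first listed transcript were searched on both strands for the E2F letters TTTCCCGC, TTTGGCGC or TTTCGCGC, the CHR element TTTGAA and the CCAAT box. The E2F letters were in 4 of 12 S promoters (33.3%), in 1 of 15 G2/M promoters (6.67%) and in 1.59% of the promoters of all 27025 genes. CHR and CCAAT stood together in 1 of 12 S promoters, in 6 of 15 G2/M promoters (40%) and in 5.73% of all. CCAAT, with or without CHR, was in 9 of 12 and 13 of 15 promoters against 34.5% of all. Shown are the genes with most UMIs among those with such letters whose window does not overlap the annotated gene. In the S genes capitals mark the E2F letters, which in part overlap one another: Mcm6, which codes for a subunit of the helicase that opens DNA (chr1:128359706-128359955, minus strand), and Mcm5, a further subunit (chr8:75109259-75109508, plus strand). In Top2a, the topoisomerase that untangles sister chromosomes (chr11:99024190-99024439, minus strand), Mki67, which coats mitotic chromosomes (chr7:135716380-135716629, minus strand), and Hmgb2, a chromatin protein (chr8:57511593-57511842, plus strand), capitals mark CHR and CCAAT in either orientation. These matches are letters in a window and not shown binding.
Mcm6: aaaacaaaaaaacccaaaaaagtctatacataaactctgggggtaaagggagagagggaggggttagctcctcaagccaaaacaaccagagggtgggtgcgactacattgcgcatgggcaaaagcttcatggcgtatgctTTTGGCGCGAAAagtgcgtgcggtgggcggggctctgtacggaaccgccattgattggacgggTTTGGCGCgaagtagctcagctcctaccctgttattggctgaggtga
Mcm5: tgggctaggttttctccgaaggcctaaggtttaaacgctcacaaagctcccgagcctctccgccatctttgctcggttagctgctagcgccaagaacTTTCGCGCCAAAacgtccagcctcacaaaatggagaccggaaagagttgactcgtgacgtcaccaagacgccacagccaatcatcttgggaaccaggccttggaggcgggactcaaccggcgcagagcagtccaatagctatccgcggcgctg
Top2a: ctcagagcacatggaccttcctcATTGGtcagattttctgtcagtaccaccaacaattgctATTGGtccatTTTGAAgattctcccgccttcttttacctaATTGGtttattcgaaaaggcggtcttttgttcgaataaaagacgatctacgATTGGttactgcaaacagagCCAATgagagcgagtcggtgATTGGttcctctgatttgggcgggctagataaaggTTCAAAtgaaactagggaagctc
Mki67: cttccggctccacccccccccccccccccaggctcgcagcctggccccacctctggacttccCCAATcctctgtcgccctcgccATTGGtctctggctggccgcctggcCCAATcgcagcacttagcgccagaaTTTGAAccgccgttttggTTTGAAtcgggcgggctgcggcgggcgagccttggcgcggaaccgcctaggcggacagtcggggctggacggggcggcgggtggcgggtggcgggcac
Hmgb2: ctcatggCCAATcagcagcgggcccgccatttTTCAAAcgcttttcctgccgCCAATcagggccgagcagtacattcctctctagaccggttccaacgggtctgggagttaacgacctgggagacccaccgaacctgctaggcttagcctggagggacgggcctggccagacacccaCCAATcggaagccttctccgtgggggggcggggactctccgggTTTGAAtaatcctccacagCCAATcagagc

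Cells were clustered without any gene of the cell cycle lists, and clusters were named from marker genes of each cell type; a name ends in -like. All 10 markers of their own class were detected in the microglia-like, T cell-like, neuroblast-like and neural precursor-like cells, where detected means in at least 20% of a cluster's or class's cells. The neural precursor-like cells also carried 7 of 10 neuroblast markers, and the border macrophage-like cells carried 5 of 10 of their own markers beside 10 of 10 microglia markers, so both names are uncertain. Of the 341 monocyte-like cells, 136 lay in a cluster led by H2-Eb1, H2-Ab1 and H2-Aa, with 6 of 10 monocyte and 4 of 10 dendritic cell markers. Of the 287 NK cell-like cells, 159 lay in a cluster with 7 of 10 NK cell and 8 of 10 T cell markers. These names are uncertain for those cells. Between 6 and 7 of 10 oligodendrocyte markers were detected in each class of the CD45-negative library other than the oligodendrocyte-like cells. No class of oligodendrocyte precursors was found. Unnamed clusters held 3.39% of CD45-negative and 17.3% of CD45-positive cells. To compare shares at 1 depth, each cell was thinned at random to 1000 UMIs, and the 694 and 814 cells with fewer UMIs were left out of the shares. A cell was called cycle-positive when it then held at least 2 different S genes or at least 2 different G2/M genes. This is a count of transcripts, not a measure of division.

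By this count the classes fell far apart. Cycle-positive cells made up 32 of 84 neural precursor-like cells (38.1%, interval 27.7% to 49.3%) and 166 of 993 neuroblast-like cells (16.7%, 14.45% to 19.2%), the young neurons on their way from the precursors. The microglia-like cells of the CD45-positive library, the resident macrophages of the brain, had 611 of 3245 (18.8%, 17.5% to 20.2%), and those of the CD45-negative library 8 of 58 (13.8%, 6.15% to 25.4%). T cell-like cells had 128 of 1980 (6.47%, 5.42% to 7.64%) and border macrophage-like cells 14 of 106 (13.2%, 7.41% to 21.2%). Oligodendrocyte-like cells, which should not divide, had 42 of 2753 (1.53%, 1.10% to 2.06%), of which 41 held S genes (1.49%), and these shares are given as the background of the count.

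The kind of gene separated these classes more than the share did. S genes, with or without G2/M genes, marked 27.4% of neural precursor-like, 10.8% of neuroblast-like, 18.1% of microglia-like and 5.30% of T cell-like cells. G2/M genes marked 23.8%, 9.77%, 1.66% and 2.48% of the same classes, against 1 of 2753 oligodendrocyte-like cells (0.0363%, 0.000920% to 0.202%). Of the cycle-positive microglia-like cells 557 held S genes only, 30 held both and 24 held G2/M genes only. The neuroblast-like cells divided as 69, 38 and 59, the neural precursor-like cells as 12, 11 and 9, and the T cell-like cells as 79, 26 and 23. In microglia-like cells the share rests on few transcripts per cell: 429 of the 611 cells held exactly 2 genes of their fuller list, and 1042 further cells held 1. In neuroblast-like cells 50 of the 166 held exactly 2, and in neural precursor-like cells 8 of the 32. Asking for 3 different genes instead put microglia-like cells (5.61%) below neuroblast-like cells (11.7%), so the order of these classes depends on the rule.

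**Figure D1:**
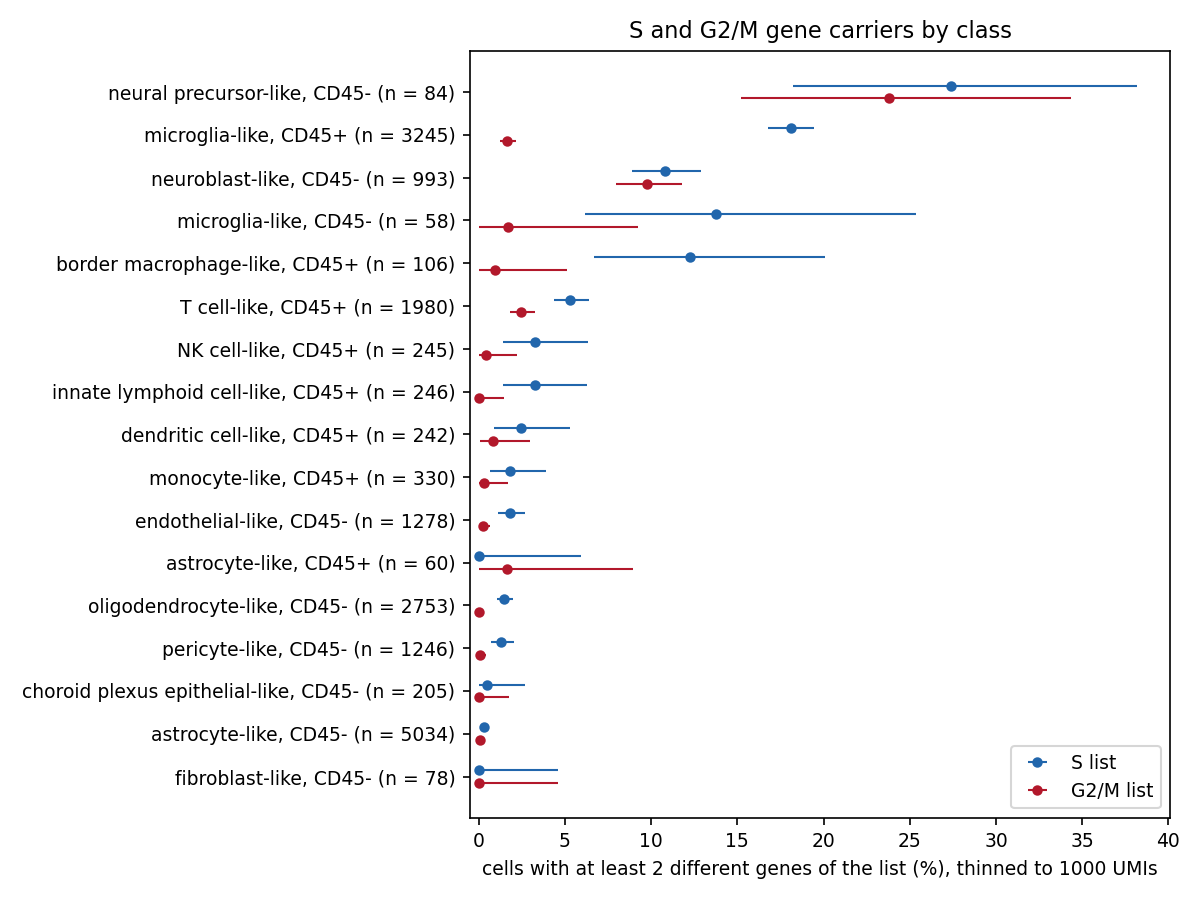
Share of cells with at least 2 different S genes (blue) or G2/M genes (red) after thinning to 1000 UMIs, by class and library, ordered by the share with either; points are shares in percent and bars exact binomial intervals. The microglia-like cells stand at 18.1% for S genes and 1.66% for G2/M genes, while both colours lie close together in the neural classes.

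Depth sets such shares. Without thinning, 79.8% of neural precursor-like cells (median 12294 UMIs), 62.6% of neuroblast-like (7703), 73.4% of microglia-like (9457), 43.8% of T cell-like (5350) and 38.8% of oligodendrocyte-like cells (8974) passed the same rule. Within a class the cycle-positive cells were deeper before thinning: their median was 12164 UMIs against 7441 in other neuroblast-like cells, 7652 against 5379 in T cell-like cells and 11484 against 9664 in microglia-like cells. Doublets are deep as well, and the part of depth and of remaining doublets in these shares was not tested.

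The remaining named classes were low. NK cell-like cells had 8 of 245 (3.27%), innate lymphoid cell-like cells 8 of 246 (3.25%), dendritic cell-like cells 7 of 242 (2.89%) and monocyte-like cells 7 of 330 (2.12%), and their intervals overlapped one another. Endothelial-like cells had 26 of 1278 (2.03%, 1.33% to 2.97%) and pericyte-like cells 17 of 1246 (1.36%), with intervals that overlap that of the oligodendrocyte-like background. Astrocyte-like cells (CD45-negative) had 21 of 5034 (0.417%, 0.258% to 0.637%), of which 4 held G2/M genes. Choroid plexus epithelial-like cells had 1 of 205 (0.488%), and 0 of 78 fibroblast-like cells were found, with an exact upper limit of 4.62% (3 cells, the limit that a count of 0 allows, would be 3.85%). The unnamed cells of the CD45-positive library, whose median was 1274 UMIs, had 127 of 993 (12.8%), with 2.52% for G2/M genes.

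**Figure D2:**
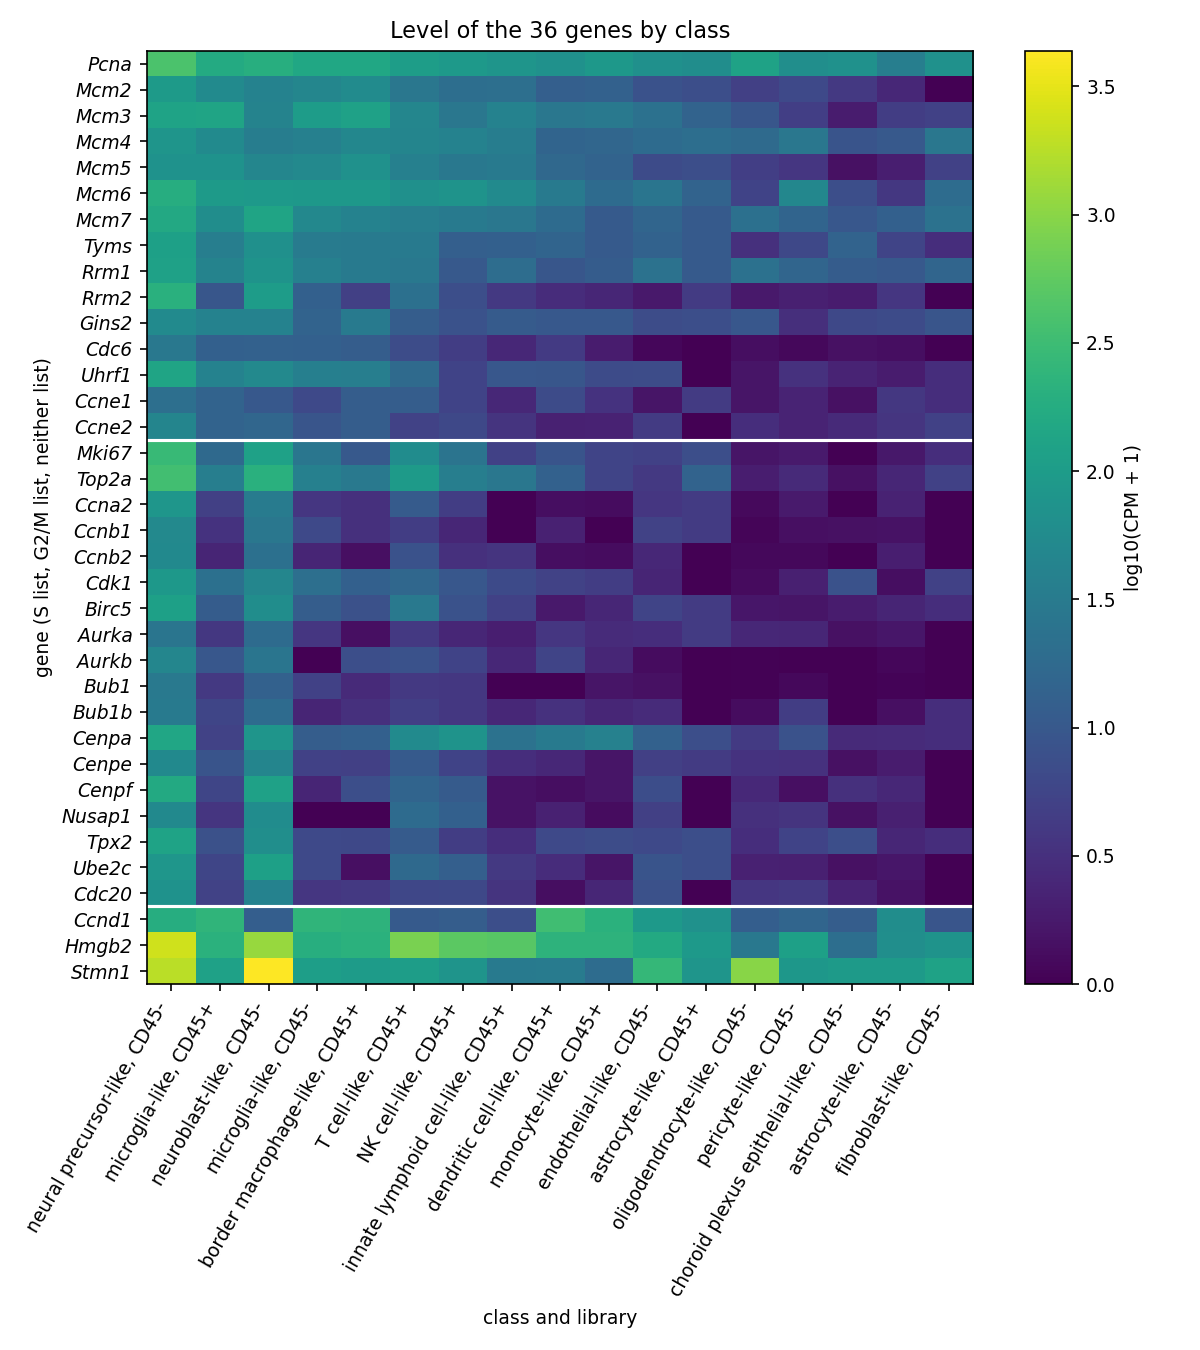
Level of each of the 36 genes (rows) in each class and library (columns, from the highest to the lowest cycle-positive share), as log10(CPM + 1), where CPM is UMIs of the gene per 1000000 UMIs of the class; white lines part the S list, the G2/M list and the 3 other genes. G2/M genes are bright in the neural precursor-like and neuroblast-like columns, and S genes also in the microglia-like and border macrophage-like columns.

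Neural precursor-like and neuroblast-like cells held the replication genes at high levels. In CPM, the gene's UMIs per 1000000 UMIs of the class, Pcna, the clamp that keeps DNA polymerase on its template, stood at 407 CPM in neural precursor-like and 189 CPM in neuroblast-like cells, against 122 CPM in oligodendrocyte-like cells. The helicase genes ranged from 69.8 (Mcm5) to 186 CPM (Mcm6) in neural precursor-like cells and from 33.4 (Mcm4) to 133.5 CPM (Mcm7) in neuroblast-like cells. Rrm2, the regulated subunit of the enzyme that makes deoxynucleotides, was at 204 and 103 CPM in these classes, at 21.0 CPM in T cell-like, 8.41 CPM in microglia-like and 0.756 CPM in oligodendrocyte-like cells. Its partner Rrm1 was at 120 and 73.2 CPM and Tyms, the enzyme that makes thymidylate, at 117 and 65.2 CPM. Gins2 and Cdc6, which build and load the helicase, were at 54.3 and 27.9 CPM in neural precursor-like and at 40.5 and 12.4 CPM in neuroblast-like cells. Uhrf1, which copies DNA methylation, was at 132 and 50.5 CPM, and the cyclin E genes Ccne1 and Ccne2 at 20.2 and 45.0 CPM in neural precursor-like and at 8.92 and 14.8 CPM in neuroblast-like cells.

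The mitotic genes were higher in these classes than in every other class of the CD45-negative library. Mki67 was at 284 CPM in neural precursor-like and 120 CPM in neuroblast-like cells, against 0.605 CPM in oligodendrocyte-like cells, and Top2a at 339 and 204 CPM against 0.945 CPM. Ccnb1, the cyclin that drives entry into mitosis, was at 51.2 and 26.9 CPM and its kinase Cdk1 at 85.3 and 45.7 CPM. Ccna2 and Ccnb2, the partner cyclins, were at 81.4 and 52.0 CPM in neural precursor-like and at 31.2 and 21.2 CPM in neuroblast-like cells. Birc5, which guides the kinase Aurkb along the chromosomes, was at 115 and 60.5 CPM, Aurkb at 46.5 and 25.0 CPM and the spindle pole kinase Aurka at 24.8 and 17.8 CPM. The checkpoint kinases Bub1 and Bub1b were at 28.7 and 30.2 CPM in neural precursor-like and at 12.4 and 17.8 CPM in neuroblast-like cells. Of the centromere and kinetochore genes, Cenpa was at 143 and 76.8 CPM, Cenpe at 52.7 and 43.6 CPM and Cenpf at 161 and 120 CPM. Tpx2, a builder of the spindle, was at 129.5 and 60.8 CPM and Cdc20, an activator of the anaphase-promoting complex, at 71.3 and 39.4 CPM. Ube2c and Nusap1 were not higher in the precursors: Ube2c, an enzyme of the same complex, was at 79.9 in neural precursor-like and 117 CPM in neuroblast-like cells (ratio 0.682, 0.551 to 0.836), and Nusap1, a spindle protein, at 52.7 and 57.6 CPM (0.915, 0.699 to 1.18).

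Set against each other, 9 of 15 S genes, 5 of 18 G2/M genes and 1 of the 3 others were at least 2-fold higher in neural precursor-like than in neuroblast-like cells, where 14.1% of all genes with at least 20 UMIs were. The median log2 ratio was 1.11 for S genes and 0.89 for G2/M genes, against 0.09 for all genes. Ccnd1 had the widest gap of the 36, at 183 against 11.4 CPM (16.1-fold, 12.6 to 20.6). Stmn1, which takes microtubules apart and is abundant in young neurons, was lower in the precursors, at 1850 against 4351 CPM. Beyond the members, Cdk6 was higher in neural precursor-like cells (208 against 63.0 CPM), and of 13 cell cycle inhibitors 4 were at least 2-fold higher, among them Cdkn1a (115 against 32.0 CPM) and Btg2 (360.5 against 138 CPM), and 2 were at least 2-fold lower, Cdkn1b (171 against 370.2 CPM) and Btg1 (192 against 798 CPM). The median log2 ratio of the 13 was 0.57. The share of all genes at least 2-fold lower is not given for these classes, so the count of 2 has no background beside it. The split between both classes moved with the cell filter and with the genes used for clustering, so their joint value is the safer one: 198 of 1077 cells (18.4%, 16.1% to 20.8%) were cycle-positive. With at least 1000 UMIs, 500 genes and at most 10% mitochondrial UMIs per cell, 73.0% of neural precursor-like and 5.21% of neuroblast-like cells were, and with all variable genes in the clustering 65.5% and 11.3%.

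Within the neuroblast-like class the G2/M genes were held mostly by few cells, and the S genes were spread more widely. A cluster of 53 cells led by histone genes (Hist1h2af, Hist1h2ab, Hist1h3c) had S genes at 3243 CPM and G2/M genes at 7597 CPM, and 100% of its cells were cycle-positive. A cluster of 142 cells led by Insm1, Mdk and Hmgn2 had 1853 and 1533 CPM, with 47.9% cycle-positive. Beside 10 of 10 neuroblast markers these clusters carried 8 and 10 of 10 neural precursor markers. At the other end, 115 cells led by Prokr2 and Dusp4 had 277 and 19.8 CPM, with 2 cycle-positive cells, and 146 cells led by Stmn2 and Shtn1 had 287 and 58.2 CPM, with 3. The histone genes, and other leading genes of the 53-cell cluster such as Pbk and Prc1, belong to no list used here and were therefore left in the clustering. The shares in clusters led by such genes can in part be set by how the clusters were formed. Histone genes of 1 family are near-identical, and their counts may share reads. Among neural precursor-like cells, 12 led by Hist1h1b and 17 with Dll1 and Hes6 among their leading genes were 100% and 76.5% cycle-positive, while 36 led by Fabp7, Vgf and Mest and 25 with Egfr and Notum among theirs were 9.68% and 16.7%.

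T cell-like cells carried both lists at moderate levels, the G2/M genes mostly in a small group and the S genes more widely. S genes summed to 489 CPM and G2/M genes to 361 CPM. Top2a was at 93.6 CPM, Mki67 at 58.7, Cenpa at 53.6, Birc5 at 28.8, Nusap1 at 17.7, Ube2c at 16.8, Cdk1 at 15.3 and Cenpf at 13.9 CPM, while Ccnb1, Aurka and Bub1 were at 3.57, 3.07 and 2.99 CPM. A cluster of 31 cells led by Hist1h1b, Cd8b1 and Hist1h3c had 2921 CPM of S genes and 5467 CPM of G2/M genes, and all 31 were cycle-positive. Histone genes were left in the clustering, so this share too can in part be set by how the cluster was formed. The cluster led by Cd8b1, Cd8a and Gzmb had 47 of 698 (6.73%), and that led by Tnfrsf4 and Cd4 had 52 of 1268 (4.10%). Cycle-positive T cell-like cells had Cd8a at 438 against 306 CPM in the others (1.43-fold, 1.30 to 1.57), Cd4 at 61.0 against 149.8 CPM (0.407, 0.317 to 0.516) and Gzmb, the killing enzyme of cytotoxic cells, at 1534 against 717 CPM (2.14-fold, 2.03 to 2.25). Il2ra, the receptor chain of activated T cells, was at 124 against 38.3 CPM.

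Microglia-like cells of the CD45-positive library had high levels of the replication genes and low levels of the mitotic set. Mcm3 was at 132 CPM, Mcm6 at 95.6, Mcm5 at 70.2, Mcm7 at 59.6, Mcm4 at 54.7 and Mcm2 at 54.3 CPM. Pcna stood at 167, Rrm1 at 42.0, Gins2 at 40.6, Uhrf1 at 40.0, Tyms at 35.5, Ccne1 at 13.6, Ccne2 at 13.5 and Cdc6 at 12.2 CPM. The G2/M genes with the highest levels were Top2a (35.1 CPM), Cdk1 (20.8), Mki67 (16.4), Birc5 (10.3) and Aurkb (8.65). The rest lay at or below 7.75 CPM (Cenpe), among them Tpx2 at 6.99, Ube2c at 4.77, Bub1b at 4.75, Cenpf at 4.68, Cenpa at 4.28, Cdc20 at 4.16, Ccna2 at 3.95, Bub1 at 3.05, Aurka at 2.86, Nusap1 at 2.62, Ccnb1 at 2.41 and Ccnb2 at 1.42 CPM. The 88 microglia-like cells of the CD45-negative library gave a like picture from 496 S and 105 G2/M UMIs: 673 CPM for S genes against 840 CPM in the CD45-positive library, and 143 against 145 CPM for G2/M genes.

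Against T cell-like cells of the same library, microglia-like cells had 6 of 15 S genes at least 2-fold higher and 1 (Rrm2) at least 2-fold lower, and 0 of 18 G2/M genes higher and 9 lower; 30.6% of all genes were higher and 15.8% lower by this measure. The median log2 ratio was 0.74 for S genes and -0.95 for G2/M genes, against 0.32 for all genes. Gins2 was 3.70-fold (3.10 to 4.45), Ccne2 3.24-fold (2.43 to 4.42) and Mcm3 2.88-fold (2.63 to 3.14) higher. Mki67 had a ratio of 0.279 (0.251 to 0.311), Nusap1 0.148 (0.117 to 0.187) and Cenpa 0.0798 (0.0673 to 0.0943), while Cdk1 was 1.36-fold higher (1.16 to 1.61).

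Against monocyte-like cells, the circulating relatives that enter inflamed tissue, 14 of 15 S genes and 15 of 18 G2/M genes were at least 2-fold higher in microglia-like cells, where 31.4% of all genes were. The median log2 ratios were 2.38 and 2.44, against 0.47 for all genes. Ccnb1, at 102 UMIs in microglia-like cells, had 0 UMIs in monocyte-like cells. Cenpa was the 1 member at least 2-fold lower, at 39.0 CPM in monocyte-like and 4.28 CPM in microglia-like cells. The share of all genes that much lower is not given for this pair, so this count has no background beside it. E2f1, an activator of S genes, was at 28.9 CPM in microglia-like, 6.90 in monocyte-like, 7.56 in T cell-like and 54.3 CPM in neural precursor-like cells, and E2f3 at 46.6, 9.60, 11.2 and 69.0 CPM. Cdkn1a, the inhibitor p21, was lower in microglia-like than in monocyte-like cells (116 against 397 CPM), as was Cdkn1b (32.3 against 104 CPM).

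The S genes of microglia-like cells were spread over many cells and over the main microglia-like clusters. The cluster led by P2ry12, Gpr34 and Tmem119, genes of resting microglia, had 852 CPM of S genes and 160 of 884 cells cycle-positive (18.1%). The cluster led by Ccl12, Marco and Lpl had 911 CPM and 195 of 932 (20.9%), and that led by Ccl12 and Saa3 had 888.5 CPM and 177 of 819 (21.6%). Lower values were seen in the cluster led by Tnf, Ccl4 and Ccl3 (658 CPM, 42 of 339, 12.4%) and in that led by Il1f9, Ccrl2 and Hcar2 (461 CPM, 6 of 114, 5.26%). In these 5 clusters G2/M genes ran from 65.8 to 159 CPM. A group of 14 cells led by Tk1, Cdkn3 and Asf1b had 2110 CPM of S and 2804 CPM of G2/M genes. These leading genes are on no list used here and were not left out of the clustering. By cell, 52.7% of microglia-like cells held no S gene after thinning, 29.2% held 1, 12.8% held 2 and 5.30% held 3 or more. Neuroblast-like cells had a like summed level of S genes (940 CPM), with 67.2% at no S gene and 6.04% at 3 or more. Leaving out the 329 cells of the 3 microglia-like clusters with neutrophil markers gave 19.7% cycle-positive.

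The ratio of S to G2/M UMIs, in which a class's total of UMIs cancels, also set the neural and T cell-like classes apart. It was 0.856 (0.831 to 0.882) in neuroblast-like, 1.01 (0.9502 to 1.07) in neural precursor-like, 1.36 (1.30 to 1.41) in T cell-like and 1.66 (1.43 to 1.92) in NK cell-like cells. It then ran through endothelial-like (2.88), dendritic cell-like (3.03), monocyte-like (3.27) and innate lymphoid cell-like cells (4.31), whose intervals overlapped from neighbour to neighbour. The values of the single neural classes moved with the clustering. With all variable genes in it, neuroblast-like cells stood at 3.04 and neural precursor-like cells at 0.582, against 1.335 in T cell-like cells. With a coarser clustering (Leiden resolution 1), neural precursor-like cells stood at 1.49. The joint neural class stood at 0.886, and at 0.826 with all variable genes. In monocyte-like and dendritic cell-like cells much of the G2/M sum came from the gene Cenpa (below), so their place in this order depends on it. Microglia-like cells stood at 5.79 (5.64 to 5.95), astrocyte-like and pericyte-like cells both at 5.90, border macrophage-like cells at 6.99 and oligodendrocyte-like cells at 10.9 (9.93 to 11.9). The same high ratio meant different levels: 840 CPM of S genes in microglia-like cells, but 218 CPM in oligodendrocyte-like cells, of which 122 CPM were Pcna, and 94.3 CPM in astrocyte-like cells. Without Pcna the S list was at 672 CPM in microglia-like, 95.9 CPM in oligodendrocyte-like and 59.5 CPM in astrocyte-like cells.

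A second pair of lists, 32 other S genes and 40 other G2/M genes with no member among them, gave ratios of 1.08 in microglia-like, 0.996 in border macrophage-like, 0.669 in T cell-like, 0.583 in neuroblast-like, 0.349 in astrocyte-like and 0.274 in oligodendrocyte-like cells. In these ratios the microglia-like and border macrophage-like cells stayed above the neuroblast-like and T cell-like cells, while the oligodendrocyte-like and astrocyte-like cells moved from above these to below them. The second G2/M list summed to 1446 CPM in oligodendrocyte-like cells against 20.1 CPM for the G2/M members, and to 1126 CPM in microglia-like cells. It is thus not particular to cycling cells, and its ratios are no check on those of the first lists.

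**Figure D3:**
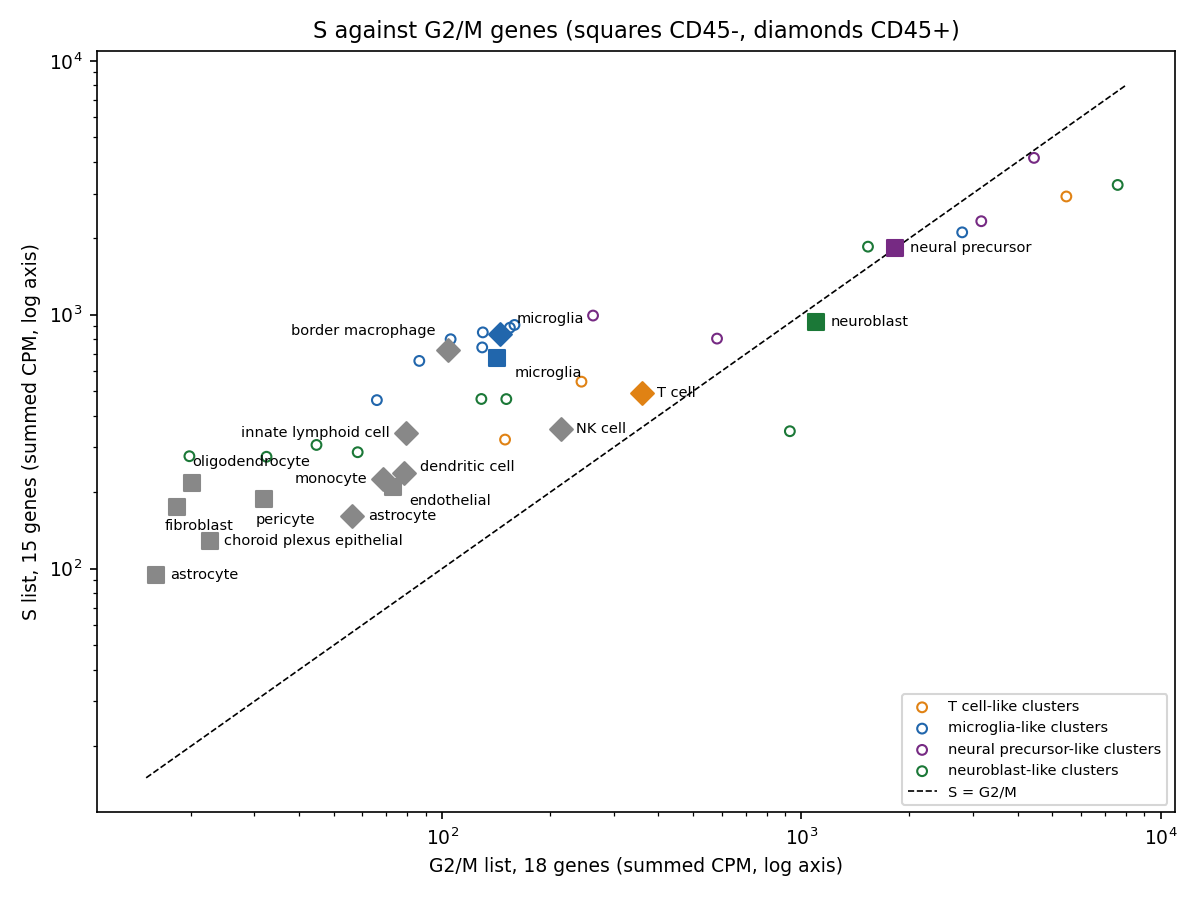
Summed level of the 15 S genes (vertical) against that of the 18 G2/M genes (horizontal), both in CPM on log axes; filled squares and diamonds are classes of the CD45-negative and CD45-positive libraries, open circles the clusters within the 4 coloured classes, and the dashed line marks equal sums. Neural precursor-like and neuroblast-like cells lie at the line, and microglia-like cells lie above it at 840 against 145 CPM.

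Cells that held at least 5 different G2/M genes before thinning were set side by side between classes; the G2/M genes chose these cells, and their levels are a description. There were 35 such neural precursor-like cells (39.3% of the class), 115 neuroblast-like (11.5%), 56 T cell-like (2.77%) and 185 microglia-like cells (5.35%). They held 96.7%, 94.7%, 67.0% and 54.0% of their class's G2/M UMIs and 80.3%, 51.8%, 31.4% and 21.5% of its S UMIs. Their median UMIs were 18004, 13140, 12984 and 21664, against 12294, 7703, 5350 and 9457 in the whole classes. Their share of all UMIs of the class is not given, so these shares do not rank the classes. Without these cells the S genes of the remaining microglia-like cells still summed to 747 CPM, with G2/M genes at 75.6 CPM, and those of the remaining neuroblast-like cells to 553 and 70.7 CPM.

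These 185 microglia-like cells were near the neuroblast-like group for some S genes and below it for the G2/M genes. Their Mcm3 (188 CPM), Gins2 (67.2 CPM) and Ccne2 (49.2 CPM) stood beside 119, 68.65 and 50.5 CPM in the 115 neuroblast-like cells. Top2a was at 149 against 1073 CPM, Mki67 at 111 against 645 CPM, Cdk1 at 69.6 against 240.3 CPM and Rrm2 at 47.4 against 454 CPM. The gap was wider for several genes of mitosis proper: Ccnb1 at 9.59 against 146 CPM, Ccnb2 at 6.60 against 115 CPM, Cenpf at 29.0 against 636 CPM, Ube2c at 28.0 against 582 CPM and Cenpa at 13.4 against 385 CPM. The 56 T cell-like cells had Mki67 at 739 CPM and Top2a at 926 CPM, near the neuroblast-like group, and were below it for Ccnb1 (44.8 CPM), Cenpf (212 CPM), Ube2c (238 CPM), Cenpa (145 CPM) and Cdc20 (51.6 against 203 CPM). The microglia-like cells of this group were deep, with a median of 21664 UMIs against 13140 in the neuroblast-like and 12984 in the T cell-like group; the part of depth in this difference was not tested.

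**Figure D4:**
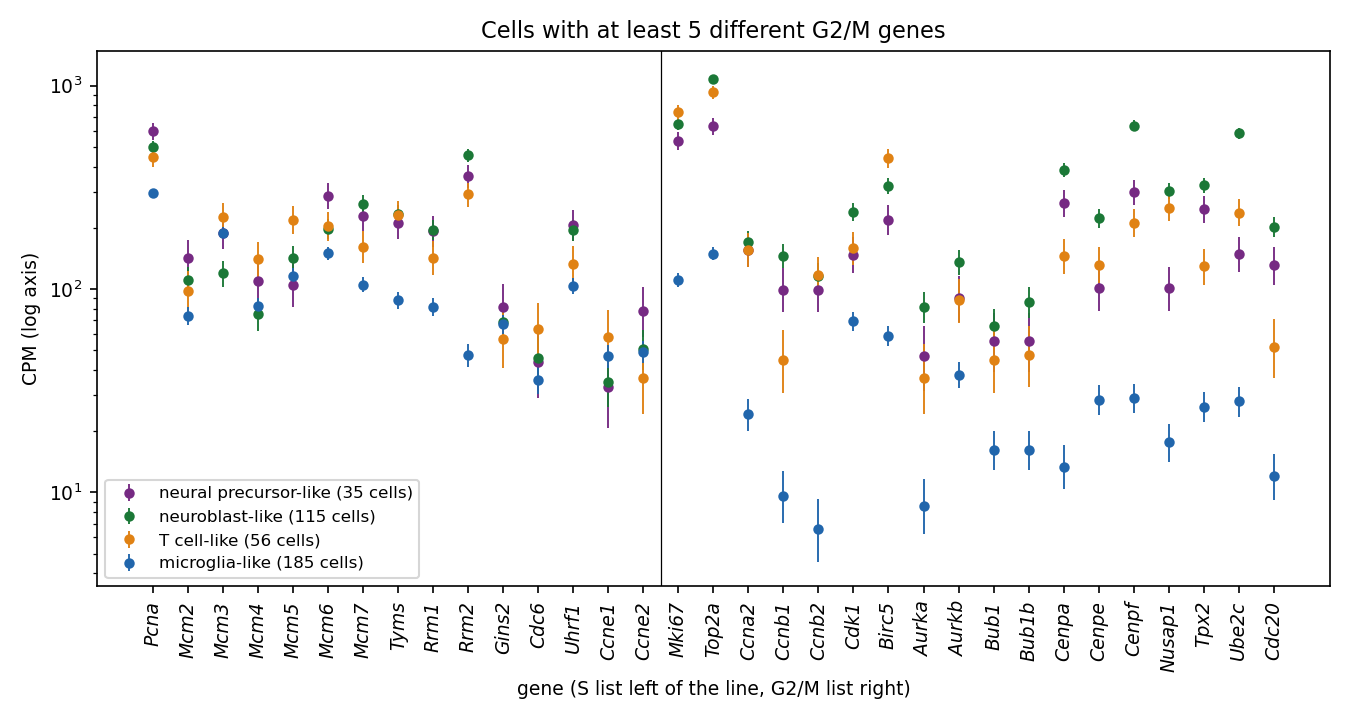
Level in CPM (log axis) of each S and G2/M gene in cells with at least 5 different G2/M genes before thinning, in 4 classes; points are summed over cells and bars exact Poisson intervals. The microglia-like cells (blue) lie among the other classes for several S genes, such as Mcm3 at 188 CPM, and below all of them for every G2/M gene.

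In endothelial-like cells the G2/M list rested on the 2 cells with at least 5 different G2/M genes. They held 62.3% of the list's 478 UMIs, and without them the list stood at 27.6 rather than 73.0 CPM, beside 20.1 CPM in oligodendrocyte-like and 31.9 CPM in pericyte-like cells. The ratio of S to G2/M UMIs moved from 2.88 to 7.57 with these 2 cells left out, a direction set by picking them for their G2/M genes. Cenpa, the histone variant of the centromere, differed between the leukocyte classes: 73.6 CPM (60.03 to 89.4) in NK cell-like, 53.6 in T cell-like, 39.0 in monocyte-like, 30.6 in dendritic cell-like and 22.2 CPM in innate lymphoid cell-like cells. Mki67 was at 23.8, 58.7, 4.50, 7.74 and 4.04 CPM in the same classes, and Cenpf at 10.1, 13.9, 0.600, 0.387 and 0.506 CPM. The whole G2/M list stood at 214, 361, 68.7, 78.2 and 79.4 CPM in the same order. Cenpa alone was thus much of the G2/M sum in monocyte-like and dendritic cell-like cells, and their S to G2/M ratios depend on it. No ratio without Cenpa is given.

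The 3 members outside the lists were not bound to the cycle-positive cells alone. Ccnd1, the D cyclin that senses growth signals, was at 337 CPM in dendritic cell-like, 239 in microglia-like, 224 in border macrophage-like, 212 in monocyte-like and 183 CPM in neural precursor-like cells, against 9.63 CPM in T cell-like and 11.4 CPM in neuroblast-like cells. Ccnd2, a sister cyclin, was at 2387 CPM in neural precursor-like, 3660 in neuroblast-like and 466 in T cell-like cells against 16.3 CPM in microglia-like cells. Hmgb2 was at 2388 CPM in neural precursor-like, 1212 in neuroblast-like, 799 in T cell-like and 534 in NK cell-like cells, against 28.0 CPM in oligodendrocyte-like cells. Stmn1 was at 4351 CPM in neuroblast-like, but also at 979.7 CPM in oligodendrocyte-like cells. The inhibitor Cdkn1a was highest in oligodendrocyte-like (921 CPM) and endothelial-like cells (657 CPM), and Cdkn1c, the inhibitor p57, in choroid plexus epithelial-like cells (437 CPM).

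Hmgb2 followed the G2/M side of the count in neuroblast-like cells. It was at 342 CPM in cells with neither list, 1560 CPM in the 69 cells with S genes only, 4935 CPM in the 38 with both and 5890 CPM in the 59 with G2/M genes only. In T cell-like cells the same groups stood at 603, 1011, 5045 and 4166 CPM, and in microglia-like cells at 178, 287, 747 and 592.5 CPM. Stmn1 hardly moved in neuroblast-like cells (4116, 4444, 5236 and 5737 CPM) and was at 27.4 CPM with neither list and 1874 CPM with both in T cell-like cells. Ccnd1 differed little in microglia-like cells, at 238, 245.5, 191 and 254 CPM.

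Genes that played no part in placing the cells were set between cycle-positive cells and the other cells of their class; the members themselves placed the cells and are not read. Among the other S genes, 29 of 30 measured were at least 2-fold higher in cycle-positive neural precursor-like cells, 30 of 32 in neuroblast-like, 29 of 32 in T cell-like and 14 of 32 in microglia-like cells. Among the other G2/M genes the counts were 31 of 38, 35 of 40, 31 of 35 and 22 of 40. Of all genes measured, 9.5%, 7.99%, 6.86% and 2.49% were that much higher in the 4 classes. The median log2 ratios of the other S genes were 2.84, 2.60, 2.11 and 0.93, and of the other G2/M genes 2.35, 4.13, 3.13 and 1.07, against medians of all genes between -0.03 and 0.03. Both lists' medians were lowest in microglia-like cells.

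Of these genes, Nasp, a histone chaperone, was at 660 against 191 CPM in neural precursor-like and 589 against 156 CPM in neuroblast-like cells. Atad2, a chromatin factor, was at 286 against 23.2 CPM in neuroblast-like, 193 against 84.0 CPM in T cell-like and 141 against 74.0 CPM in microglia-like cells. Cdca7 and Slbp, the latter a binder of histone messages, were at 511 against 108 and 318 against 65.6 CPM in neural precursor-like cells, and Gmnn, which blocks a second round of licensing, at 177 against 39.6 CPM in T cell-like cells. Hells, a chromatin remodeller, was at 125 against 60.3 CPM in microglia-like cells. Tmpo, a protein of the nuclear lamina, was higher in all 4 classes, by 4.44-fold in neural precursor-like, 2.98-fold in neuroblast-like, 3.44-fold in T cell-like and 1.69-fold in microglia-like cells. Jpt1 had ratios of 1.39, 0.872, 1.46 and 0.985 in the same order, and so hardly followed the count. Foxm1 was at 68.4 against 2.85 CPM in neural precursor-like and 55.9 against 1.87 CPM in neuroblast-like cells, and Mybl2, the gene of B-Myb, at 31.3 against 0.647 CPM in T cell-like cells. E2f1 was higher by 4.05-fold, 8.23-fold and 1.92-fold in neural precursor-like, neuroblast-like and microglia-like cells. The brake Btg1 was lower in cycle-positive neuroblast-like (408 against 925 CPM), T cell-like (659 against 1360 CPM) and microglia-like cells (211 against 291 CPM), and at 205 against 181 CPM in neural precursor-like cells. Btg2, a related brake, was 1.75-fold and 1.47-fold higher in cycle-positive neural precursor-like and neuroblast-like cells and had ratios of 0.483 and 0.640 in T cell-like and microglia-like cells. The median log2 ratios of the inhibitors measured were 0.29, 0.56, 0.43 and 0.07 in the 4 classes. Ccnd2 was 2.78-fold and 1.59-fold higher in cycle-positive neural precursor-like and neuroblast-like cells, and Cdk4, a kinase of the D cyclins, was 1.82-fold, 1.65-fold, 2.05-fold and 1.25-fold higher in the 4 classes.

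Outside every list, the genes with the largest ratios in neuroblast-like cells were Hist1h3c (354 against 1.56 CPM), Hist1h3b (97.4 against 0.467), Sapcd2 (31.0 against 0.156), Hist1h2af (235 against 1.25) and Cenpn, a centromere gene (28.6 against 0.156). In neural precursor-like cells they were Esco2, which ties sister chromatids together (157 CPM against 0 UMIs, at least 36.8-fold higher with 3 UMIs set for the class), Hist1h2af, Hist1h2ab, Hist1h1b and Hist1h1a. In T cell-like cells Hist1h3c (229 against 1.20 CPM), Hist1h2af, Mxd3 and Kif4, a mitotic motor, followed Il13, whose 560 UMIs in cycle-positive cells all came from 1 cell. In microglia-like cells Pbk (13.7 against 1.92 CPM in 69 of 611 cells) and Aunip (9.43 against 1.53 CPM in 70 cells), both of mitotic cells, came after Car1, Tcap and Car2, which 2, 8 and 9 of the 611 cells held.

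Neuroblast-like cells that were cycle-positive had less of the neuronal genes and more Egfr. Egfr, a growth factor receptor of precursors, was at 50.1 against 19.6 CPM (2.56-fold, 1.95 to 3.34), while the neuronal genes Dcx (542 against 1077 CPM), Stmn2 (876 against 2138 CPM) and Tubb3 (1043 against 1815 CPM) were lower. Most of these cycle-positive cells lay in the clusters of 53 and 142 cells described above, with 53 of 53 and 67 of 140 cycle-positive. Those clusters also carried 8 and 10 of 10 neural precursor markers. The contrast thus mixes clusters, and the part of this mix was not tested. With the stricter cell filter 5.21% of neuroblast-like cells were cycle-positive. Cycle-positive neural precursor-like cells had more Dlx2 (339 against 25.7 CPM) and less Fabp7 (486 against 968.5 CPM). In cycle-positive microglia-like cells P2ry12, a receptor of microglia, was lower, at 360.1 against 427 CPM (0.843, 0.811 to 0.876). Il1b (108 against 186 CPM), Ccl4 (526 against 881 CPM) and Tnf (93.4 against 140.0 CPM) were lower in these cells as well. The cluster led by Tnf and Ccl4 had 12.4% cycle-positive cells, and its part in these values was not tested. The genes of this paragraph and the T cell genes above were picked by hand with earlier results known.

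Between whole libraries the members parted by list. Of the 36, 14 were at least 2-fold higher in the CD45-positive library, 11 of them S genes and 2 of them G2/M genes (Cdk1 and Aurkb), where 16.5% of all genes were; 3 were at least 2-fold lower (Cenpf, Ube2c and Stmn1), where 40.9% of all genes were. The median log2 ratio was 1.41 for S genes and -0.12 for G2/M genes, against -0.52 for all genes. Mcm3 was at 13.5 CPM among CD45-negative and 98.3 CPM among CD45-positive cells (7.28-fold higher, 6.84 to 7.76), Mcm5 at 8.67 and 54.7 CPM and Ccnd1 at 41.0 and 184 CPM. Cenpf was at 16.9 and 6.098 CPM (0.361, 0.324 to 0.402) and Stmn1 at 876 and 109 CPM. Setting the median of all genes to 0 moves Ccna2 from -0.29 to 0.24 and Aurka from -0.27 to 0.26. It turns the sign of no other member. Then 19 members are at least 2-fold higher and 1 lower, and 18 and 1 under TMM scaling. The share of all genes is not given under these scalings, so these counts have no background beside them. The cells that held the genes differed as well: microglia-like cells held between 51.0% (Rrm2) and 80.0% (Gins2) of every S gene's UMIs in the CD45-positive library, and neuroblast-like cells held between 56.5% (Aurka) and 81.8% (Ube2c) of every G2/M gene's UMIs in the CD45-negative library. These ranges have unlike backgrounds. Microglia-like cells were 3458 of the 8432 kept CD45-positive cells, and neuroblast-like cells 997 of the 12847 kept CD45-negative cells. The share of all UMIs that each class held is not given, so neither range is read as a concentration of these genes. In such sums more cells of a type and more RNA per cell cannot be told apart.

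**Figure D5:**
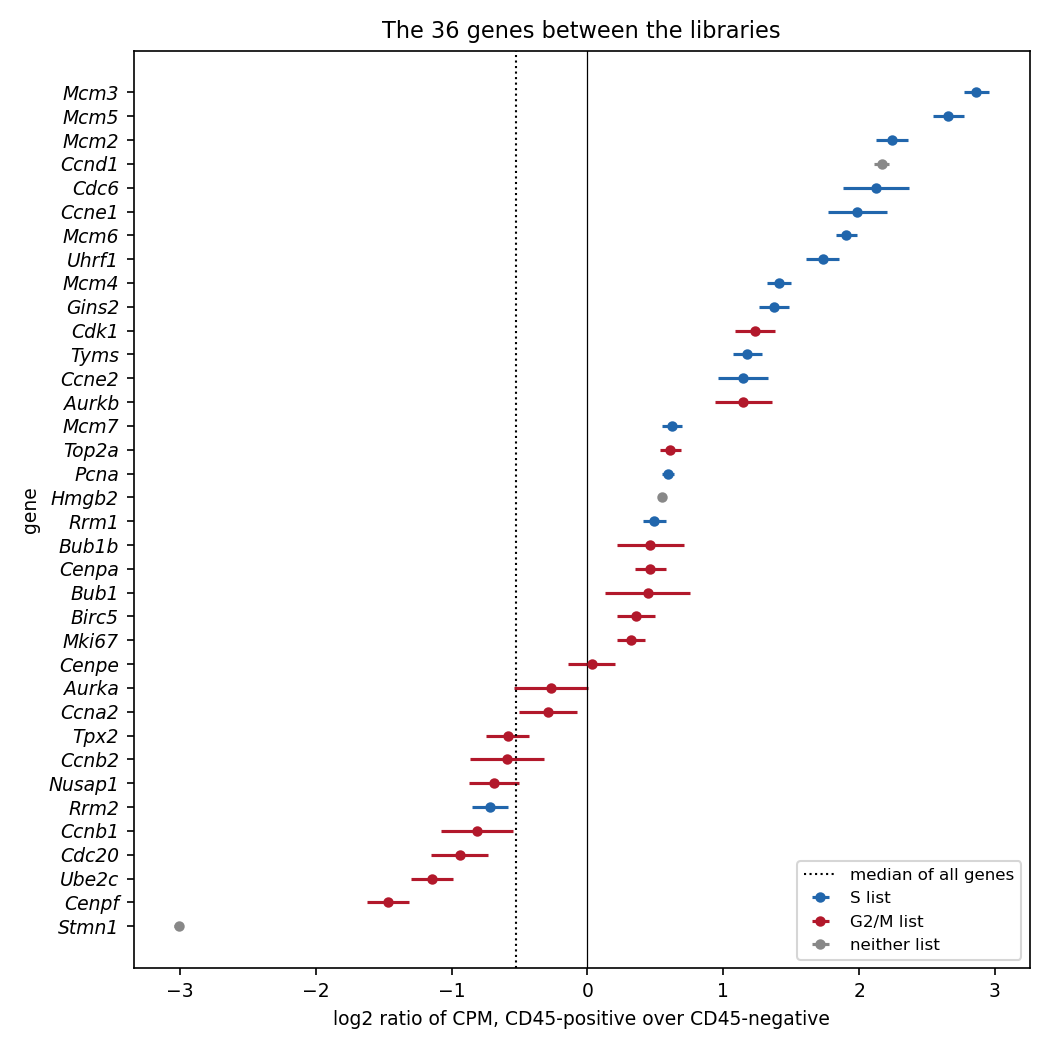
Log2 ratio of CPM between the CD45-positive and the CD45-negative library for each of the 36 genes, all kept cells summed, with exact intervals of counting error; colours give the list, the solid line marks no difference and the dotted line the median over all tested genes (-0.52). All S genes but Rrm2, at -0.72, lie to the right of the solid line, up to Mcm3 at 2.86, and G2/M genes lie on both sides, from Cenpf at -1.47 to Cdk1 at 1.23.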

How the data were processed

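The deposited matrices hold whole-number UMI counts per gene and barcode from 10x 3' libraries, 1 per group; per the submitters' processing notes they were made by the authors with Cell Ranger 6.1.2 and the mm10 build. No source used here gives the mapping parameters, and each group has 1 library.

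Barcodes with at least 500 UMIs, 200 genes and at most 20% mitochondrial UMIs were kept, and doublets called by Scrublet in scanpy 1.11.5 were removed (839 of 14524 in the CD45-negative and 177 of 8662 in the CD45-positive library; 11.6% and 6.93% were assumed from 0.8% per 1000 barcodes, and 5.78% and 2.04% were called). Cells were clustered by the Leiden method (leidenalg 0.10.2, resolution 2) on variable genes without the cell cycle lists. A class needed at least 50 cells in a library.

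Levels are CPM over the summed counts of a class, with exact Poisson, binomial and conditional binomial intervals at 95% (scipy 1.17.1). PCR and capture add error that these do not cover. Ratios across many genes use genes with at least 20 UMIs and a 2-fold limit. With 1 library per group no test across samples exists and no p-value is given. The scripts were tested on simulated data. The members, lists and rules were chosen with earlier results of these data known. Named genes are all members, the 3 genes with most UMIs in cycle-positive cells of each other list (a selection is printed), and the 5 largest ratios outside the lists, with at least 50 UMIs, in classes with at least 30 cycle-positive cells. Alternatives were another thinning depth, rule, list pair, filter, clustering and scaling, doublets kept, and the libraries clustered alone.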

Additional observations from a re-analysis of the deposited data

How the results depend on the processing

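The counts of members between libraries were recomputed under the listed alternatives. So were the share of cycle-positive cells and the S to G2/M ratio of the neural, T cell-like and CD45-positive microglia-like classes. The other classes, among them the oligodendrocyte-like background, were not recomputed. Of 102 values, 42 stayed within their counting interval or, for the counts, within 1.5 times, among them 18 members at least 2-fold higher under TMM and 19 under median-of-ratios scaling, against 14. The 60 others follow, in the order neural precursor-like with neuroblast-like cells together, neural precursor-like, neuroblast-like, T cell-like and microglia-like cells, leaving out values that stayed. The cause was not tested beyond what the settings themselves change.

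Thinning to 2000 UMIs gave shares of 28.1%, 57.8%, 25.6%, 16.0% and 39.2%, and no thinning gave 64.0%, 79.8%, 62.6%, 43.8% and 73.4%. Asking for 3 different genes gave 13.0% for the joint class, 11.7% for neuroblast-like, 2.63% for T cell-like and 5.61% for microglia-like cells. The second gene lists gave 68.5%, 71.4%, 68.3%, 41.3% and 45.1%. The G2/M list alone gave 10.9%, 23.8%, 9.77%, 2.48% and 1.66%, and the S list alone 12.1%, 27.4%, 10.8% and 5.30% in all but microglia-like cells. The S list without Pcna gave 5.25% for T cell-like and 14.1% for microglia-like cells. Clustering with all variable genes gave 22.2%, 65.5% and 11.3% in the neural classes, and the stricter cell filter 23.0%, 73.0% and 5.21%, with 4.51% in T cell-like cells. The G2/M, S-alone and Pcna settings, like the ratio without the cells of 5 G2/M genes, were chosen after the data were seen.

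S to G2/M ratios with the second lists were 0.595, 0.666, 0.583, 0.669 and 1.08. Without cells with at least 5 G2/M genes they were 7.59, 6.07, 7.83, 2.82 and 9.88. Those cells were picked by their G2/M genes, so a rise was built in. Clustering with all variable genes gave 0.826, 0.582 and 3.04 in the neural classes. Doublet calls kept gave 0.861, 1.11 and 0.793 there and 1.41 in T cell-like cells. Leiden resolution 1 gave 1.49 for neural precursor-like and 0.783 for neuroblast-like cells. Leaving out the gene with most UMIs of each list gave 1.44 for T cell-like and 6.12 for microglia-like cells. The count of members at least 2-fold lower in the CD45-positive library was 1 under TMM and 1 under median-of-ratios scaling, against 3. For the counts under these scalings no share of all genes is given.

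No paired analysis was possible because each group has 1 library. Depth limits the shares, since most cycle-positive microglia-like cells hold few transcripts of the lists, and low counts leave intervals wide in the small classes. Levels per class were compared at full depth and were not thinned.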
